A study of Mus musculus with 12 samples.

Results

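Left ventricles taken 14 days after myocardial infarction were compared with left ventricles taken 14 days after sham surgery, in wild-type C57BL/6J mice that had all received an AAV9 control vector by tail vein. AAV9 is a serotype of adeno-associated virus that reaches heart muscle well. Since infarcted and sham mice carried it alike, nothing here measures the vector itself. The libraries were chosen by their labels alone, 4 of control vector with infarction and 4 of control vector with sham surgery, which are 8 of the 12 libraries of the series. The other 4, from infarcted mice given a vector for Irx3, take no part. Infarction was caused by tying the left anterior descending coronary artery, the design text gives 4 mice per group, and the labels give 1 batch. The labels do not give sex, age, the cargo of the control vector or which zone of the ventricle was sampled.

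When a coronary artery is closed, the muscle it fed dies, neutrophils and then macrophages clear it, and fibroblasts replace it with a collagen scar. The muscle that survives carries a higher load and is known to switch on stress and fetal genes, such as the natriuretic peptides and the slow myosin heavy chain. A normal heart burns mostly fatty acids in densely packed mitochondria and renews its calcium store with every beat, and both functions are known to decline in failing muscle. The comparison asks which transcripts of the muscle, the scar, the immune cells and the vessels differ at the time of scar maturation.

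Sequencing of polyadenylated RNA gave 15966982 to 18441830 counts per sham library and 16081360 to 18738571 per infarction library. The labels name the cell type as cardiomyocytes, but sham libraries also held the endothelial gene Pecam1 at 229.8, 264, 223 and 245 normalised read counts per 1000000 (CPM, scaled to library size with edgeR's TMM factors) and the fibroblast gene Pdgfra at 46.7, 46.1, 37.8 and 39.4 CPM. The tissue was therefore read as whole ventricle. In bulk RNA of this kind, fewer cells of a type and less RNA per cell cannot be told apart. Of 14910 genes tested, edgeR called 49.0% at an adjusted p under 0.05, 26.1% (3895 genes) higher after infarction and 22.8% (3406) lower, and for 48.4% the CPM of the 2 groups did not overlap. These shares are the background for every count of a gene list given here. The filter on low counts asked for enough counts in as many libraries as 1 group holds. A gene nearly silent in 1 group could thus pass through the other group alone, and its direction was then fixed in advance. The median log2 fold change over all genes was 0.00. The p-values measure the spread among these 8 hearts. A log2 fold change of 1 is a 2-fold difference, and CPM are not divided by gene length, so levels are compared between libraries and not between genes. Rises were larger than falls: 1170 called genes were at least 4-fold higher and 239 at least 4-fold lower.

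**Figure D1:**
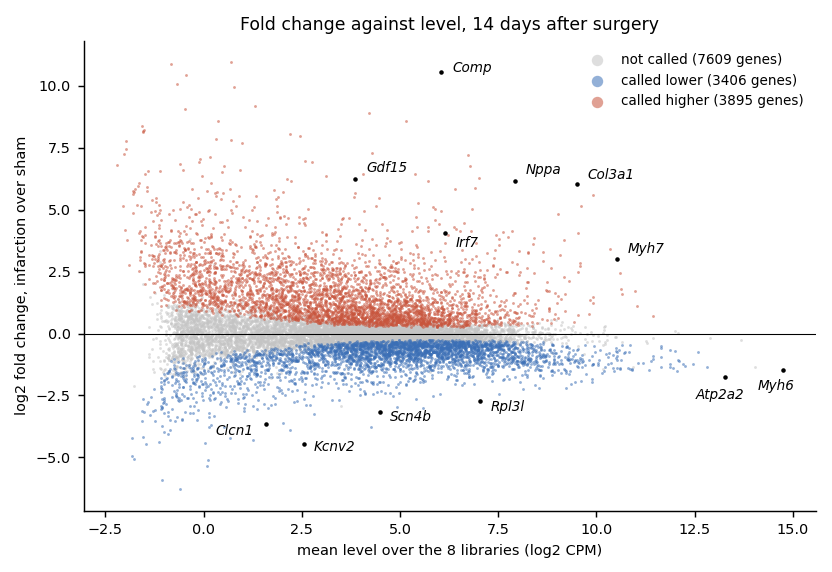
Log2 fold change of infarction over sham (vertical axis) against the mean level over the 8 libraries (log2 CPM, horizontal axis) for the 14910 genes tested, with the 3895 called higher in red, the 3406 called lower in blue and the rest in grey. The cloud is centred on 0, and the rises reach farther from 0 than the falls.

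The infarcted hearts differed more from each other than the sham hearts did. The median SD of log2 CPM over the 9245 genes compared was 0.142 among sham hearts and 0.250 among infarcted hearts. Replicate 4 of infarction stood farthest from the sham hearts on the leading principal component and replicate 2 nearest. Infarction replicate 1 held transcripts of skeletal muscle: its 6 defining markers summed to 292 CPM, against 13.9 CPM in infarction replicate 3 and at most 2.44 CPM in the remaining 6 libraries. Infarction replicate 4 held more blood and surface transcripts than the other infarcted hearts, with erythroid markers at 1011 CPM against 71.2 to 119, neutrophil markers at 191 CPM against 17.4 to 31.8 and mesothelial markers at 116 CPM against 37.0 to 53.0. With both replicates left out, an alternative chosen after seeing these values, edgeR called 6788 genes, 6102 of them among the 7301 calls of all 8 hearts and none in the opposite direction. Fat cell markers stood at 0.244, 15.6, 0.0541 and 34.7 CPM in infarction replicates 1 to 4 and at most 0.592 CPM in sham hearts, so replicates 2 and 4 held them, and Cfd, which is also the gene of complement factor D, is among them. Lung and liver markers summed to 1.07 to 2.57 CPM in sham and 2.499 to 5.70 CPM in infarcted hearts, with the defining lung marker Sftpa1 at 0 counts, and thymus and lymph node markers to 0.652 to 2.26 and 1.68 to 2.51 CPM, with Ptcra at 0 counts. The part of any of these sources in the results was not tested.

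**Figure D2:**
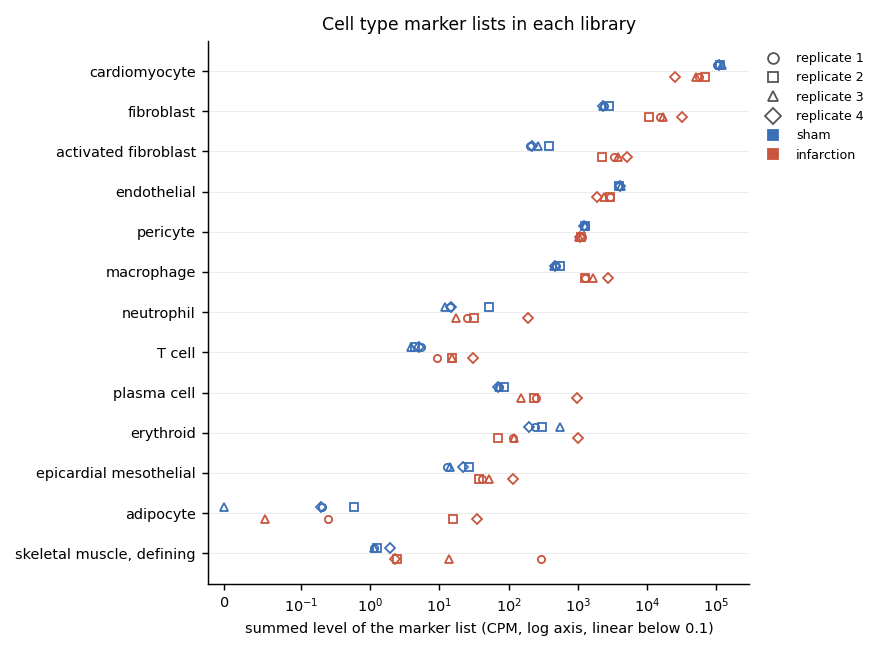
Summed level of 12 cell type marker lists and of the 6 defining skeletal muscle markers (horizontal axis, CPM, log scale that is linear below 0.1) in each sham (blue) and infarction (red) library, with 1 marker shape per replicate number. Cardiomyocyte markers lie lower in every infarcted heart, fibroblast and macrophage markers lie higher, and the skeletal muscle and erythroid sums each stand apart in 1 infarction library.

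Nppa, Nppb and the stress factor gene Gdf15 were far higher after infarction. Nppa, which encodes atrial natriuretic peptide, was at 17.6, 92.1, 12.8 and 18.9 CPM in the sham hearts and at 2709, 1271, 3104 and 2948 CPM in the infarcted hearts. Every infarcted heart lay far above every sham heart (log2 fold change 6.15 with SE 0.72, adjusted p = 0.00012 in edgeR), and without sham replicate 2, the highest of the sham hearts, the value was 7.25. Nppb, the gene of B-type natriuretic peptide, rose from 21.3, 29.3, 12.6 and 23.6 CPM to 505, 465, 624 and 320.1 CPM with no overlap (log2 fold change 4.46 with SE 0.30, adjusted p = 5.32e-06 in edgeR). Corin, the protease that cuts the atrial peptide out of its precursor, moved the other way, from 403, 444, 491 and 453 CPM to 212, 217, 181 and 156 CPM (log2 fold change -1.23 with SE 0.15, adjusted p = 0.000125 in edgeR). Of the 8 tested genes of these peptides, their processing and their receptors (10 listed), 2 rose and 3 fell, the falls being Corin, Furin, another precursor protease, and Mme, which degrades the peptides. The clearance receptor Npr3 stood at a log2 fold change of 0.31 and did not pass. Gdf15, a secreted stress factor of the TGF-beta family, was at 1.86, 1.90, 1.61 and 1.64 CPM in sham hearts and at 176, 46.4, 174 and 129 CPM after infarction (log2 fold change 6.22 with SE 0.43, adjusted p = 6.43e-06 in edgeR). Its lowest infarcted heart, replicate 2, still lay far above the sham hearts.

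The myosin of the ventricle shifted between its heavy chains. Of 14 tested myosin and myosin-binding genes (20 listed), 7 rose and 4 fell, 2 without infarction replicate 3. Myh6, the fast heavy chain of the adult mouse ventricle, was at 42905, 49450.5, 52902 and 46679.5 CPM in sham hearts and 19809, 25434, 16579 and 7609.9 CPM after infarction, the largest fall in CPM of any gene tested. Myh7, the slow chain of the fetal ventricle, was at 537, 532, 563 and 459.9 CPM and 3959, 4358, 5284 and 3372 CPM. Neither gene overlapped between groups, and edgeR gave log2 fold changes of -1.47 (SE 0.37, adjusted p = 0.00779) and 3.02 (SE 0.21, adjusted p = 6.43e-06). As a ratio of counts, Myh7 to Myh6 went from 0.0125, 0.0108, 0.0106 and 0.00985 to 0.1999, 0.171, 0.319 and 0.443, a mean 25.9 times higher. A two-sided exact permutation test gave p = 0.0286, the smallest that 4 against 4 allows, and p = 0.0364 adjusted over the 14 pairs compared. The ratio was lowest in infarction replicate 2 and highest in replicate 4. The atrial light chain gene Myl4 rose (log2 fold change 2.41 with SE 0.54, adjusted p = 0.00433 in edgeR), by 1.60 without infarction replicate 1, the heart with skeletal muscle transcripts. The non-muscle heavy chains Myh9 and Myh10 rose too, at log2 fold changes of 1.01 (SE 0.21) and 1.33 (SE 0.11), and the ventricular light chain Myl3 fell (log2 fold change -1.32 with SE 0.38, adjusted p = 0.0163 in edgeR).

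The actin pair gave a different picture from the myosin pair. The skeletal actin Acta1, often read as a fetal gene beside Myh7, was at 1349, 1734, 934 and 1428 CPM in sham hearts and 1395, 2326, 1301 and 109.9 CPM after infarction. The groups overlapped and edgeR made no call (log2 fold change -0.09 with SE 0.63, adjusted p = 0.92 in edgeR): 3 infarcted hearts lay within or above the sham range and replicate 4 lay far below it. The log2 fold change was 0.30 without that heart, also not called (adjusted p = 0.315). The count ratio of Acta1 to the cardiac actin Actc1 gave an exact permutation p of 0.857. Of the 14 tested actin, troponin and tropomyosin genes (16 listed), 4 rose (2 by DESeq2) and 4 fell (2 with the replicate number as a block), and the falls were 2 without sham replicate 1 or 2 or infarction replicate 3 and 1 without sham replicate 3. Either share was 28.6%, beside 26.1% of all genes higher and 22.8% lower. The largest log2 fold change of the list was 4.50. In infarction replicate 1, the heart with skeletal muscle transcripts, the skeletal troponin Tnnt3 had 600 counts. Infarction replicates 2 to 4 had 37, 63 and 37 counts of Tnnt3, and the sham hearts 12, 4, 2 and 7. The part of skeletal muscle transcripts in these rises was not tested. The inhibitory troponin of the adult heart, Tnni3, fell (log2 fold change -1.42 with SE 0.33, adjusted p = 0.00515 in edgeR), and the tropomyosins Tpm3 and Tpm4, which are broadly expressed, rose by 1.29 (SE 0.13) and 0.61 (SE 0.14).

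Genes of titin, the Z-disc and stretch sensing moved in both directions. Ankrd1, a titin-bound stretch sensor, was at 333, 465, 162 and 242 CPM in sham hearts and 2193, 1595, 2888 and 1859.8 CPM after infarction (log2 fold change 2.83 with SE 0.34, adjusted p = 0.000125 in edgeR), with no overlap. Of 31 tested genes of that list (32 listed), 8 rose and 13 fell, at a median log2 fold change of -0.44. Those shares, 25.8% and 41.9%, stood beside 26.1% and 22.8% of all genes. The falls were 7 without sham replicate 2 or 3 and 8 without infarction replicate 3. Xirp2, a repair protein of the Z-disc, had a log2 fold change of 1.21 (SE 0.27) and Pdlim3, an actinin partner, one of 2.04 (SE 0.15), and edgeR called both. The ubiquitin ligases of muscle atrophy, Trim63 and Fbxo32, fell by 1.23 (SE 0.23) and 1.44 (SE 0.15) on the log2 scale. The intercalated disc joins muscle cells end to end, and 8 of its 15 genes fell (5 with the replicate number as a block) and 1 rose. Its falls included the desmosomal genes Dsg2 (-1.39) and Pkp2 (-0.78) and the alpha-catenin Ctnna3 (-0.92), and its rise was Gja5, a connexin of conduction fibres and arteries (0.97, SE 0.26), no longer called without infarction replicates 1 and 4 (edgeR adjusted p = 0.0595). The main ventricular connexin, Gja1, stood at 138, 176, 139 and 141 CPM and 150.0, 122, 158 and 177 CPM, with overlapping groups (log2 fold change 0.03, edgeR adjusted p = 0.873).

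Genes that cycle calcium through the sarcoplasmic reticulum fell in the main. Of 19 tested genes (20 listed), 10 fell and 1 rose, at a median of -0.67. Atp2a2, the pump that refills the store, was at 19064, 18193, 20516 and 19419 CPM in sham hearts and 5487, 9431, 5294 and 2356 CPM after infarction (log2 fold change -1.77 with SE 0.38, adjusted p = 0.00308 in edgeR). Every infarcted heart lay below every sham heart, with replicate 2 the closest and replicate 4 the lowest. The release channel Ryr2 fell (log2 fold change -1.48 with SE 0.27, adjusted p = 0.00146 in edgeR), as did the store protein Hrc (-2.06, SE 0.40) and the pore of the L-type channel, Cacna1c (-0.77, SE 0.17). The rise was Fkbp1b, which binds the release channel (log2 fold change 2.44 with SE 0.49, adjusted p = 0.00237 in edgeR, and 1.70 without infarction replicates 1 and 4). It rose from a low level, 0.258 CPM in sham replicate 3 and 0.593 to 0.666 CPM in the other sham hearts. Phospholamban, the pump's brake (Pln), stood at -1.09 and did not pass (edgeR adjusted p = 0.176), but passed at -1.89 without infarction replicate 2 (adjusted p = 0.0354).

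Potassium channel genes had the lowest median of the heart muscle lists. Of 22 tested (22 listed), 18 fell and 3 rose, at a median of -1.31, against 22.8% of all genes lower. Kcnv2, a silent subunit that modifies other channels, was at 30.5, 24.4, 34.7 and 26.6 CPM in sham hearts and 1.81, 1.57, 1.46 and 0.394 CPM after infarction (log2 fold change -4.47 with SE 0.34, adjusted p = 9.37e-06 in edgeR). The genes of the transient outward current that ends the spike of the mouse action potential fell too: Kcnd2, its pore, from 27.2, 28.5, 25.2 and 32.4 to 9.85, 14.6, 12.03 and 6.75 CPM (log2 fold change -1.39 with SE 0.21, adjusted p = 0.000489 in edgeR), and its partner Kcnip2 by 1.74 on the log2 scale (SE 0.38). Both were lower in every infarcted heart. The inward rectifiers Kcnj2, Kcnj3 and Kcnj5 had log2 fold changes of -1.96, -2.52 and -1.55, the ATP-sensitive Kcnj11 of -1.06, and Kcna5 and Kcnq1, delayed rectifiers, of -0.99 and -1.15, and edgeR called all 6. The rises were the small subunits Kcne4 (2.35, SE 0.42) and Kcne1 (1.11, SE 0.38) and the calcium-activated channel Kcnn4, which is known from blood cells and fibroblasts (3.65, and 4.37 without sham replicate 2). The call for Kcne1 was lost without infarction replicate 1 or 2 or without sham replicate 1, 3 or 4 (edgeR adjusted p = 0.0794, 0.084, 0.0749, 0.0949 and 0.0883).

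In a list of sodium, pacemaker and T-type calcium channel genes that also holds the chloride channel Clcn1, 7 of 14 tested (15 listed) fell and 2 rose (1 without sham replicate 1, 3 or 4 or infarction replicate 3, and with the block). Scn4b, an accessory subunit of sodium channels, fell from 97.7, 68.2, 93.5 and 80.3 CPM to 10.5, 19.8, 6.77 and 0.788 CPM (log2 fold change -3.17 with SE 0.62, adjusted p = 0.00194 in edgeR, and -3.81 without infarction replicate 2). Clcn1, the chloride channel that steadies the membrane of skeletal muscle, fell (log2 fold change -3.66 with SE 0.47, adjusted p = 0.000193 in edgeR). The pacemaker channel Hcn4 fell by 1.86 (SE 0.28), and the T-type channel Cacna1g by 0.49 (SE 0.13).

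Transcription factors that specify heart muscle were lower in part. Of 25 tested (26 listed), 15 fell and 3 rose. Tbx5, a T-box factor of the heart, was at 61.7, 75.3, 85.0 and 69.3 CPM in sham hearts and 23.3, 18.7, 18.0 and 16.0 CPM after infarction (log2 fold change -1.94 with SE 0.15, adjusted p = 9.89e-06 in edgeR), with no overlap. Irx4, which marks ventricular muscle, fell by 0.98 (SE 0.19), and the estrogen-related receptors Esrrb and Esrrg, which drive genes of oxidation, by 1.29 (SE 0.23) and 1.28 (SE 0.22). Gata4 was not called (-0.08, edgeR adjusted p = 0.58). The rises were Tbx18, a gene of epicardium and mural cells (1.72, SE 0.21), Nfatc4, which is switched on by calcineurin (1.86, SE 0.22), and Tbx20 (0.80, SE 0.13).

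Of 22 tested genes of adrenergic, angiotensin and endothelin signalling (25 listed), 9 fell and 5 rose. The beta1-adrenergic receptor gene Adrb1 was at 14.8, 16.4, 16.0 and 12.4 CPM in sham hearts and 7.84, 8.03, 7.21 and 8.18 CPM after infarction (log2 fold change -0.93 with SE 0.14, adjusted p = 0.000401 in edgeR), and the alpha1B receptor Adra1b fell by 1.44 (SE 0.19). Neither overlapped between groups. The angiotensin-converting enzyme Ace rose from 146, 178, 136 and 143 CPM to 599.9, 420.3, 612 and 933 CPM (log2 fold change 2.09 with SE 0.23, adjusted p = 8.54e-05 in edgeR), and Edn1, which encodes endothelin-1, rose by 2.35 (SE 0.25).

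Beside each of these muscle groups, the 18 cardiomyocyte markers summed to 103930.0 to 120129 CPM in sham hearts and to 56225, 68193, 50395 and 25683 CPM in infarction replicates 1 to 4. Of these 18, 15 fell and 1, Nppa, rose, at a median of -1.09. The markers called lower were 9 without sham replicate 2 and 7 without sham replicate 3. Calcium cycling (-0.67) and the intercalated disc (-0.40) lay above that median and potassium channels (-1.31) below it. The part of muscle content in these results was not tested.

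Genes for burning fatty acids fell almost throughout. Of 34 tested genes of uptake and oxidation (34 listed), 31 fell and 1 rose, at a median of -1.44. Acadm, the medium-chain acyl-CoA dehydrogenase, was at 1059, 902, 1015 and 1084 CPM in sham hearts and 315, 570.3, 341 and 135 CPM after infarction (log2 fold change -1.58 with SE 0.35, adjusted p = 0.0038 in edgeR). Replicate 2 kept the most and replicate 4 the least, and the groups did not overlap. Lipoprotein lipase (Lpl), the acyl-CoA synthetase Acsl1 and the nuclear receptor Ppara fell by 1.47, 1.65 and 1.22 on the log2 scale (SE 0.37, 0.34 and 0.25). The rise was Cpt1a, the liver form of the enzyme that admits fatty acids to mitochondria (log2 fold change 0.55 with SE 0.13, adjusted p = 0.00562 in edgeR), while its muscle form Cpt1b fell (log2 fold change -1.43 with SE 0.36, adjusted p = 0.00734 in edgeR). Their count ratio, Cpt1a to Cpt1b, went from 6.44, 4.37, 3.24 and 5.11 to 10.6, 13.8, 24.98 and 41.2 (exact permutation p = 0.0286, adjusted p = 0.0364). Ratios above 1 do not rank the 2 forms, since counts were not divided by gene length and the counting method is not given. Ppargc1a, a coactivator of mitochondrial genes, was not called, at 135, 159, 181 and 221 and 159, 423, 196 and 40.1 CPM, with replicate 2 as the highest infarcted heart (log2 fold change 0.23, edgeR adjusted p = 0.734, and -0.39 without that replicate, adjusted p = 0.497).

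Glucose genes moved in both directions, and isoform pairs shifted within them. Of 34 tested genes of uptake and glycolysis (35 listed), 9 rose and 17 fell. The insulin-responsive transporter Slc2a4 was at 632, 644, 692 and 656 CPM in sham hearts and 244, 347, 243 and 118 CPM after infarction (log2 fold change -1.46 with SE 0.27, adjusted p = 0.00143 in edgeR). The forms typical of heart muscle, Slc2a4, Hk2, Pfkm and Ldhb, fell, and their broadly expressed partners made up a larger share of each pair. The ratio of Slc2a1 to Slc2a4 had means of 0.0621 ± 0.00563 (SD, n = 4) and 0.314 ± 0.256 (SD, n = 4) and an exact permutation p of 0.0286. Hexokinase Hk1 to Hk2 went from 0.664, 0.570, 0.511 and 0.613 to 1.49, 0.910, 1.44 and 2.31, phosphofructokinase Pfkp to Pfkm from 0.0450, 0.0575, 0.0391 and 0.0451 to 0.240, 0.196, 0.300 and 0.436, and lactate dehydrogenase Ldha to Ldhb from 0.394, 0.416, 0.350 and 0.354 to 0.945, 0.723, 0.873 and 1.93. In all 3 pairs the groups did not overlap and the exact permutation p was 0.0286. The creatine kinases, which buffer ATP, shifted too: brain-form Ckb over muscle-form Ckm went from 0.0336, 0.0417, 0.0441 and 0.0322 to 0.211, 0.0941, 0.284 and 1.42 (the same exact p), with infarction replicate 4 well above the others. Over the 11 listed genes of creatine kinase, adenylate kinase and oxygen storage, 2 rose and 8 fell. The mitochondrial creatine kinase of muscle, Ckmt2, fell (log2 fold change -1.41 with SE 0.33, adjusted p = 0.00509 in edgeR).

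**Figure D3:**
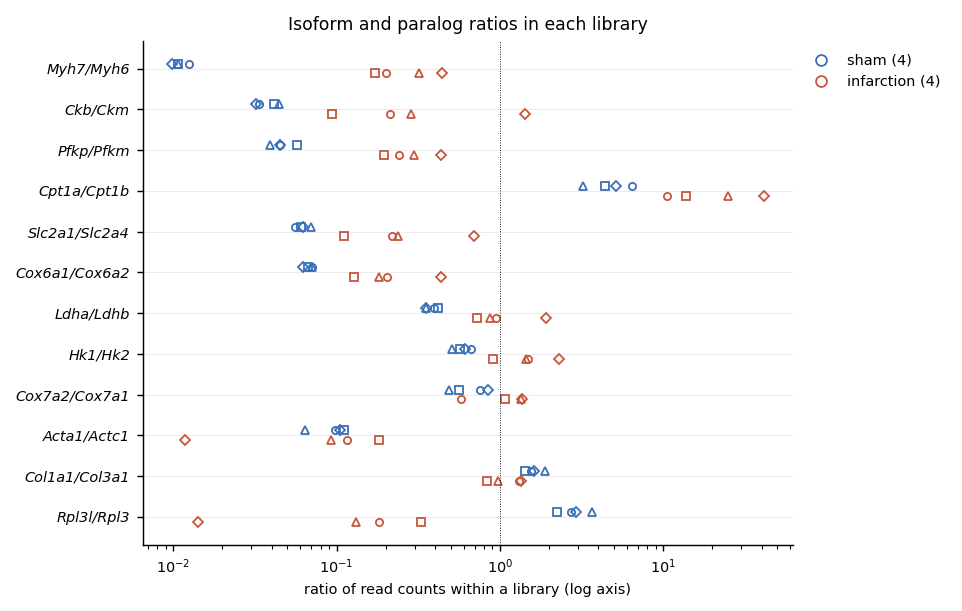
Ratios of read counts within a library (horizontal axis, log scale) for 12 pairs of isoform or paralog genes, in the 4 sham (blue) and 4 infarction (red) libraries, with 1 marker shape per replicate number (circle 1, square 2, triangle 3, diamond 4). Ratios of different pairs are not comparable, since counts were not divided by gene length. Myh7 to Myh6 and Rpl3l to Rpl3 show the widest gaps between groups, and Acta1 to Actc1 and Cox7a2 to Cox7a1 overlap.

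Most of the tested nuclear genes of the respiratory chain fell. Of 36 tested complex I subunits (36 listed), 33 fell and 0 rose, at a median of -1.07. Of 38 tested subunits of complexes II to V (48 listed), 35 fell and 0 rose, at a median of -1.06. The muscle form of a cytochrome oxidase subunit, Cox6a2, was at 1477, 1821, 1849 and 1591 CPM in sham hearts and 776, 856, 756 and 377 CPM after infarction (log2 fold change -1.29 with SE 0.25, adjusted p = 0.0019 in edgeR). Infarction replicate 2 was the nearest to sham and replicate 4 the farthest. The ratio of the broadly expressed Cox6a1 to Cox6a2 went from 0.0709, 0.0666, 0.0707 and 0.0626 to 0.204, 0.128, 0.181 and 0.439 (exact permutation p = 0.0286). Of 30 tested genes of the TCA cycle and of branched-chain amino acid and ketone oxidation (31 listed), 28 fell. The rise was Bcat1, the cytosolic transaminase of branched-chain amino acids (log2 fold change 2.39 with SE 0.36, adjusted p = 0.000465 in edgeR), while the mitochondrial Bcat2 fell (log2 fold change -1.13 with SE 0.13, adjusted p = 0.000114 in edgeR).

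Genes that build and maintain mitochondria fell too. Of 75 tested mitochondrial ribosomal protein genes (76 listed), 56 fell, at a median of -0.70, and of 22 tested genes of biogenesis, dynamics and mitophagy (23 listed) 14 fell, at a median of -0.76. Tfam, which packages mitochondrial DNA, fell by 0.80 (SE 0.19), the fusion protein Mfn2 by 0.85 (SE 0.20) and the kinase Pink1, which marks damaged mitochondria, by 1.36 (SE 0.16). Both medians lie between 0 and those of the respiratory complexes, a difference that was not tested. When a change of more than 1.5-fold was required, 12 mitochondrial ribosomal protein genes passed as lower. No gene of that list was called higher in any setting tried.

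Transcripts of mitochondrial DNA varied widely among infarcted hearts. They held 8.22, 5.001, 4.50 and 6.88% of all counts in the sham hearts and 2.06, 5.64, 2.25 and 0.926% in infarction replicates 1 to 4. Replicate 2 lay inside the sham range and the other 3 below it, and the two-sided exact permutation test gave p = 0.0857. Of the 12 protein genes tested (13 listed), 6 fell, at a median of -1.48, and 12 fell without replicate 2. Without replicates 1 and 4, 1 fell. The values of the single hearts for the list were -2.21, -0.31, -1.75 and -3.59, the widest span of any list in the plot of lists by heart.

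**Figure D4:**
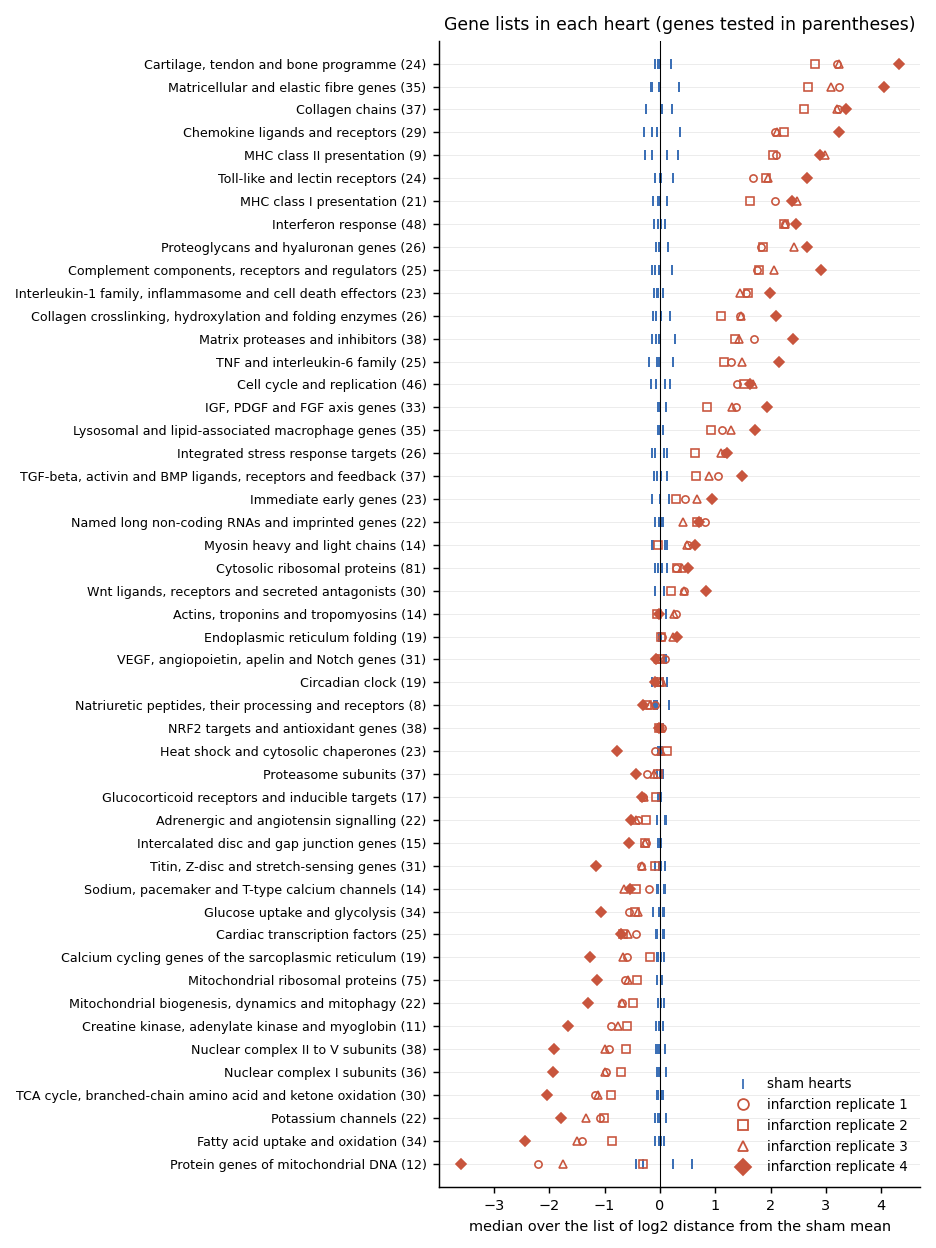
Median over each gene list of the log2 distance of a heart from the sham mean (horizontal axis), for the sham hearts (blue ticks) and infarction replicates 1 to 4 (red circle, square, triangle and filled diamond), with the number of genes tested in parentheses. Lists run from mitochondrial DNA at the bottom to the cartilage programme at the top, and replicate 4 lies at the outer edge of most muscle, mitochondrial and matrix lists, while the interferon and cell cycle lists are close together in the 4 infarcted hearts.

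The scar programme held some of the largest rises. Collagen chain genes took 0.189, 0.222, 0.185 and 0.161% of all counts in sham hearts and 2.53, 1.84, 2.59 and 4.72% after infarction, with no overlap (exact permutation p = 0.0286, the smallest possible). Of 37 tested chains (44 listed), 32 rose and 1, Col6a6, fell (-0.81, SE 0.24), at a median of 3.24. Col3a1, the chain of distensible fibrils, was at 91.9, 127, 81.9 and 70.3 CPM in sham hearts and 4678, 4339, 5372 and 9919.6 CPM after infarction (log2 fold change 6.04 with SE 0.38, adjusted p = 4.53e-06 in edgeR). The count ratio of Col1a1, the chain of stiffer fibrils, to Col3a1 went from 1.55, 1.42, 1.89 and 1.62 to 1.30, 0.836, 0.979 and 1.35 (exact permutation p = 0.0286), so Col3a1 rose by the larger factor. Basement membrane and network collagens rose less, Col4a1 by 1.46 (SE 0.16) and Col15a1 by 3.06 (SE 0.22), than Col5a1 and Col5a2, which regulate fibril width (3.96 and 5.03), and Col12a1, which decorates fibrils under tension (6.42, SE 0.31). These differences between genes were not tested.

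Enzymes and partners that turn chains into crosslinked fibrils rose with them. Of 26 tested genes (27 listed), 22 rose and 1 fell. Loxl2, which crosslinks collagen, was at 9.72, 8.01, 5.54 and 5.72 CPM in sham hearts and 99.8, 53.8, 92.3 and 123 CPM after infarction (log2 fold change 3.67 with SE 0.28, adjusted p = 9.75e-06 in edgeR), and the lysyl hydroxylase Plod2 rose by 0.97 (SE 0.16). The propeptide protease Adamts2 rose by 4.08 (SE 0.35) and the collagen chaperone Serpinh1 by 1.36 (SE 0.27). Of 26 tested proteoglycan and hyaluronan genes (32 listed) 22 rose, among them decorin (Dcn, 2.10), lumican (Lum, 3.56), asporin (Aspn, 3.61) and versican (Vcan, 2.37). Of 35 tested matricellular and elastic fibre genes (36 listed) 32 rose and none fell, with periostin (Postn) going from 19.4, 19.04, 10.9 and 14.01 CPM to 829, 722, 1149 and 1053 CPM and elastin (Eln) from 71.6, 108, 111 and 71.1 CPM to 1266, 1438, 1191 and 1398 CPM. The connective tissue growth factor Ccn2 rose by 3.17 (SE 0.34).

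Genes known from cartilage, tendon and bone rose in the main. Of 24 tested (34 listed), 21 rose and 2 fell, at a median of 3.56. Comp, the cartilage oligomeric matrix protein, was at 1.60, 2.91, 1.48 and 1.64 CPM in sham hearts and 2084, 1121, 1989 and 6280.2 CPM after infarction (log2 fold change 10.54 with SE 0.70, adjusted p = 5.32e-06 in edgeR), and 9.82 without infarction replicate 4, which held the highest level. The tendon factor Scx and the bone factor Runx2 rose by 1.41 (SE 0.27) and 3.08 (SE 0.29), and Cilp, an antagonist of TGF-beta found in cartilage, by 6.29 (SE 0.42). The falls were Sox6, a chondrocyte factor, and Lrrc15, a marker of myofibroblasts and osteoblasts, at 34.9, 23.1, 32.7 and 31.3 CPM and 7.30, 15.02, 4.01 and 4.73 CPM (log2 fold change -1.98 with SE 0.36, adjusted p = 0.00142 in edgeR). Other markers of activated fibroblasts went the other way, Cthrc1 from 0.0666, 0.119, 0 and 0.132 CPM to 49.5, 37.7, 43.2 and 74.5 CPM and the factor Meox1 by a log2 fold change of 2.53 (SE 0.18). The smooth muscle actin Acta2, the usual mark of a myofibroblast, was not called, at 109.8, 271, 184 and 132 and 193, 179, 289 and 434 CPM (log2 fold change 0.65 with SE 0.33, adjusted p = 0.13 in edgeR, and 0.94 with adjusted p = 0.0403 without sham replicate 2).

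Beside these scar groups, 10 of the 12 fibroblast markers rose and 1, Scara5, fell, at a median of 2.57. The markers include the matrix genes Col1a1, Col1a2, Dcn and Lum, so they are not separate from the scar groups. The lineage markers Pdgfra and Tcf21 rose by 1.69 (SE 0.16) and 2.24 (SE 0.25). The part of fibroblast number in the matrix results was not tested.

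Of 38 tested genes of matrix proteases and their inhibitors (43 listed), 27 rose and 3 fell, the falls being the proteases Mmp15 (-1.30) and Adamts7 (-0.84) and the inhibitor Timp4 (-1.82). The gelatinase Mmp2 was at 53.7, 72.2, 56.9 and 45.7 CPM in sham hearts and 808, 529, 1048 and 1644 CPM after infarction (log2 fold change 4.14 with SE 0.35, adjusted p = 1.76e-05 in edgeR), and the fibroblast protease Fap rose by 1.54 (SE 0.39). The inhibitor Timp1 rose from 0.533, 4.57, 0.837 and 0.395 CPM to 30.1, 18.98, 31.4 and 84.3 CPM, a log2 fold change of 4.66, 6.10 without sham replicate 2 and 4.05 without infarction replicate 4.

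Signals that act on fibroblasts rose as ligands and as antagonists. In the TGF-beta, activin and BMP list 25 of 37 tested genes (42 listed) rose and 3 fell. The ligands Tgfb1, Tgfb2 and Tgfb3 rose by 1.02, 2.60 and 2.55 (SE 0.16, 0.19 and 0.21), and the activin chain Inhba went from 0.599, 1.84, 0.451 and 1.18 CPM to 5.44, 3.03, 5.20 and 8.23 CPM (log2 fold change 2.41 with SE 0.44, adjusted p = 0.00137 in edgeR). Secreted antagonists of Wnt signals moved in both directions. Frzb was at 2.80, 4.75, 3.16 and 3.16 CPM in sham hearts and 119, 89.3, 131 and 281 CPM after infarction (log2 fold change 5.48 with SE 0.39, adjusted p = 7.27e-06 in edgeR), and Dkk3 rose by 7.28 (SE 0.48), while the antagonist Sfrp5 fell (-3.55, -4.16 without infarction replicate 1). Over the whole Wnt list 13 of 30 tested genes (40 listed) rose and 2 fell, a share of 43.3% higher against 26.1% of all genes. Igf1 rose from 3.13, 3.26, 2.51 and 2.96 CPM to 14.9, 13.6, 21.5 and 16.1 CPM (log2 fold change 2.47 with SE 0.19, adjusted p = 9.61e-06 in edgeR), and in the IGF, PDGF and FGF list 21 of 33 tested (35 listed) rose.

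By the median of their list, interferon response genes rose in nearly equal measure in the 4 infarcted hearts. Interferons are alarm signals against viruses and leaked nucleic acid, and the list holds sensors, factors and effectors that they switch on. Of 48 tested genes (50 listed), 45 rose and 1 fell, at a median of 2.21. The list medians in infarction replicates 1 to 4 were 2.26, 2.24, 2.26 and 2.46, whereas those of complex I were -0.97, -0.70, -0.996 and -1.94. Irf7, the factor that amplifies the response, was at 16.8, 17.2, 22.5 and 13.9 CPM in sham hearts and 388, 223, 239.9 and 329 CPM after infarction (log2 fold change 4.07 with SE 0.23, adjusted p = 3.25e-06 in edgeR). Ifit3, an effector that binds foreign RNA, was at 8.45, 5.04, 6.12 and 4.74 CPM and 115, 101, 129 and 93.2 CPM (log2 fold change 4.17 with SE 0.20, adjusted p = 1.72e-06 in edgeR). In both the groups were far apart, and the infarcted hearts lay closer together for Ifit3 than for Irf7. The ubiquitin-like Isg15 rose by 3.40 (SE 0.21), the negative regulator Usp18 by 3.36 (SE 0.12), and the nucleic acid sensor Zbp1 by 4.68 (SE 0.33). The fall was Ifit1bl1, a relative of Ifit1 (-0.83, SE 0.31, edgeR adjusted p = 0.0437). Its call was lost when any library but infarction replicate 3 was left out (adjusted p = 0.0574 to 0.132) and with the replicate number as a block (adjusted p = 0.11). The Ifit genes are similar in sequence, and so are the Oas and MHC class I genes, and the labels do not say how reads that match several of them were counted.

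The promoters of the interferon genes were read for the interferon response core, GAAANNGAA on either strand, which can overlap itself. A gene counts as holding a motif when any of its promoters does. The core was found in 21 of the 35 genes of the list with a known promoter (60%), against 9.76% of all 27025 genes of the RefSeq table (250 bases before to 50 after the start, GRCm38.p6). Of those 21 genes 20 rose and 1 fell, beside 45 and 1 of the 48 tested genes of the whole list. A match describes the letters of the window and does not show a bound site. The 250 bases before the start of Ifit3, Isg15 and Ifit1bl1 follow, with matches in capitals. They are shown since all 3 hold the motif, and Ifit1bl1 is the member that fell.
Ifit3, chr19:34583279-34583528, plus strand: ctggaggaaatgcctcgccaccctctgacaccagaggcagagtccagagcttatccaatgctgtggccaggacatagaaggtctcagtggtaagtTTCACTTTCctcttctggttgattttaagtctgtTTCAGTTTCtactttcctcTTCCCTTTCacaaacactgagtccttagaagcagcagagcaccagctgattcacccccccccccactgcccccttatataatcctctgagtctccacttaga
Isg15, chr4:156200819-156201068, minus strand: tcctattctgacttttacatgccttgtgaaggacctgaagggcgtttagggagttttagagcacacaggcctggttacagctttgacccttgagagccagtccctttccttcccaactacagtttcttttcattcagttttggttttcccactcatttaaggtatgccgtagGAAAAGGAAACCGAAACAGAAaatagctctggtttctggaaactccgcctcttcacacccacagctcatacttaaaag
Ifit1bl1, chr19:34601969-34602218, minus strand: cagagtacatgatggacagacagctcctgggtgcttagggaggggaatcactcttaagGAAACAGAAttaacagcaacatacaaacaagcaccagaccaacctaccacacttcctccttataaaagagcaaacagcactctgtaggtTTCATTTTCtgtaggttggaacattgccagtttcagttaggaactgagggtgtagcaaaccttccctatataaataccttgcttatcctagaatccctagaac
In these windows Ifit3 had 3 matches, Isg15 3 and Ifit1bl1 2. The match nearest the start began 102 bases before it in Ifit3, 66 in Isg15 and 103 in Ifit1bl1.

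Antigen presentation rose in both classes. Of 21 tested class I genes (21 listed) 19 rose, including the peptide transporter Tap1 (3.08, SE 0.17), the immunoproteasome subunit Psmb8 (2.21, SE 0.20) and the class I transactivator Nlrc5 (2.97, SE 0.24), and 1, the folding chaperone Canx, fell (-0.56). All 9 tested class II genes rose (10 listed), with the invariant chain Cd74 at 133, 169, 165 and 127 CPM in sham hearts and 537, 664, 1047 and 972 CPM after infarction (log2 fold change 2.44 with SE 0.24, adjusted p = 3.79e-05 in edgeR). Infarction replicates 3 and 4 held more Cd74 than replicates 1 and 2, and all 4 lay above the sham hearts.

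Chemokines, complement and receptors of innate immunity rose as groups. Of 29 tested chemokine ligands and receptors (50 listed) 22 rose and 2 fell, and 4 fell without infarction replicate 2 or without replicates 1 and 4. The other 21 had too few counts to test, and their counts went both ways. Ccl24 had 18, 8, 12 and 20 counts in sham hearts and 1, 1, 2 and 3 after infarction. Cxcl1 had 2, 5, 4 and 1 counts in sham hearts and 14, 7, 38 and 110 after infarction. The T cell attractant Cxcl9 went from 1.40, 1.42, 0.966 and 2.24 CPM to 2.21, 7.57, 6.56 and 4.53 CPM (log2 fold change 1.78 with SE 0.40, adjusted p = 0.00404 in edgeR), with infarction replicate 1 inside the sham range, and the monocyte receptor Ccr2 rose by 3.60 (SE 0.49). Cxcl12, which holds stem and immune cells in tissue, was not called (-0.15, edgeR adjusted p = 0.445). Of 25 tested complement genes (28 listed) 21 rose and 1 fell. Complement C3 was at 144, 260.3, 187 and 151 CPM in sham hearts and 1300.2, 1002, 1476 and 6454 CPM after infarction, with replicate 4 far above the other infarcted hearts, so the log2 fold change was 3.78 with that replicate and 2.77 without it. C1qa, of the recognition complex made by macrophages, rose by 2.35 (SE 0.23), and C4b, of the classical pathway, by 4.14 (SE 0.42). Of 24 tested Toll-like and lectin receptors (26 listed) 20 rose and none fell. Those of nucleic acid in endosomes, Tlr7, Tlr8 and Tlr9, rose by 2.42, 1.85 and 3.32, and edgeR made no call for Tlr4, the receptor of bacterial lipopolysaccharide (0.34, adjusted p = 0.204, called only with the GC offset and without infarction replicates 1 and 4).

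In the interleukin-1, inflammasome and cell death list 22 of 23 tested genes (27 listed) rose and none fell. The alarmin Il33 was at 1.86, 2.61, 2.32 and 1.45 CPM in sham hearts and 10.6, 10.1, 16.0 and 26.5 CPM after infarction (log2 fold change 2.93 with SE 0.34, adjusted p = 0.000117 in edgeR). The inflammasome genes Nlrp3, Pycard and Casp1 rose by 2.51, 1.19 and 2.09 (SE 0.45, 0.22 and 0.33), the pore protein Gsdmd by 1.34 (SE 0.18) and the necroptosis effector Mlkl by 1.38 (SE 0.20). The decoy that traps interleukin-18, Il18bp, rose by 1.30 (SE 0.16). The member not called was Il1rl1, the receptor of interleukin-33, at 1.93, 1.07, 0.837 and 0.724 and 0.980, 1.40, 0.488 and 1.18 CPM (log2 fold change -0.17, edgeR adjusted p = 0.762).

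Markers of macrophages rose unevenly. Of 14 tested markers 10 rose and 1 fell (3 without infarction replicate 2), and their summed level went from 453 to 555 CPM to 1263, 1269, 1655 and 2743 CPM. Trem2, a lipid-sensing receptor of macrophages that clear debris, was at 1.53, 1.07, 0.644 and 1.18 CPM in sham hearts and 20.6, 15.2, 27.0 and 54.2 CPM after infarction (log2 fold change 4.72 with SE 0.45, adjusted p = 3.37e-05 in edgeR). The general macrophage marker Adgre1 rose by 2.51 (SE 0.25) and Mrc1, 1 of the resident markers listed, by 1.26 (SE 0.22), smaller values than that of Trem2, a difference that was not tested. Cd163, Lyve1, Timd4 and Folr2 are also on the list, and Mrc1 does not stand for them. Log2 fold changes over the 14 markers ran from -0.92 to 4.72, and 3 markers were not called. In the lysosomal and lipid-associated macrophage list 28 of 35 tested (37 listed) rose, with the glycoprotein Gpnmb at 4.61 (SE 0.44), the lectin Lgals3 at 4.95 (SE 0.44) and the protease Ctsk at 4.24 (SE 0.29). The 15 T cell markers summed to 3.86 to 5.52 CPM in sham hearts and 9.34, 15.05, 15.1 and 30.6 CPM in infarction replicates 1 to 4. Only 7 of them passed the filter on low counts, and the 9 natural killer cell markers were too low to test. Plasma cell markers summed to 253, 230.3, 149 and 984 CPM in infarction replicates 1 to 4 against 70.6 to 85.7 in sham hearts, again highest in replicate 4.

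Genes of cell division rose from low levels. Of 46 tested genes (48 listed) 36 rose and none fell, at a median of 1.60 and at 1.40, 1.51, 1.68 and 1.63 in infarction replicates 1 to 4. The mitotic cyclin Ccnb1 was at 0.0666, 0.297, 0.129 and 0.263 CPM in sham hearts and 3.97, 3.78, 4.99 and 3.75 CPM after infarction (log2 fold change 4.38 with SE 0.37, adjusted p = 1.79e-05 in edgeR). The mitotic kinase Cdk1 was at 0.466, 0.534, 0.193 and 0.461 CPM and 4.36, 5.82, 7.75 and 5.22 CPM, the ribonucleotide reductase subunit Rrm2 rose by 3.12 (SE 0.27), and the proliferation marker Mki67 by 1.61 (SE 0.19). The sliding clamp of replication, Pcna, was not called (0.19, edgeR adjusted p = 0.564) but passed without infarction replicates 1 and 4 (0.57, adjusted p = 0.0294). The brake Cdkn1a was not called either (-0.03, edgeR adjusted p = 0.916). Ccnb1 and Cdk1 were so low in sham hearts that they passed the filter on low counts through the infarcted hearts. A fall was therefore not open to them. Bulk counts do not say which cells divide.

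CCAAT on either strand, the box that binds NF-Y, was found in 27 of 37 cell cycle genes (73.0%) and in 41.1% of all genes of the table. TGATGNAA, the core read by ATF4 and its partners, was found in 7 of 24 genes of the integrated stress response list (29.2%) and in 4.51% of all. Of those 7 genes 5 rose and 2 fell. The bases before the start of Ccnb1 are shown with their CCAAT boxes in capitals, and those of Asns, which rose, and Chac1, which fell, with TGATGNAA in capitals.
Ccnb1, chr13:100786487-100786736, minus strand: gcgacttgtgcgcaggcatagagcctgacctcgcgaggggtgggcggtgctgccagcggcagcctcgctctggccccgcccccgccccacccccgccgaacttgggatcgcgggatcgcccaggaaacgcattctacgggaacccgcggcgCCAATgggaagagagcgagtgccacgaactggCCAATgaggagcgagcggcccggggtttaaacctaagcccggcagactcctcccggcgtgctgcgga
Asns, chr6:7693210-7693459, minus strand: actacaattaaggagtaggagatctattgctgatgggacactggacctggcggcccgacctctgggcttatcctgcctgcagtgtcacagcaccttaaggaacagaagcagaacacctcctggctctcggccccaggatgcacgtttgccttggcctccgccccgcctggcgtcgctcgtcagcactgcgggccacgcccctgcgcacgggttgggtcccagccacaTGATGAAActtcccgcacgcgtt
Chac1, chr2:119350992-119351241, plus strand: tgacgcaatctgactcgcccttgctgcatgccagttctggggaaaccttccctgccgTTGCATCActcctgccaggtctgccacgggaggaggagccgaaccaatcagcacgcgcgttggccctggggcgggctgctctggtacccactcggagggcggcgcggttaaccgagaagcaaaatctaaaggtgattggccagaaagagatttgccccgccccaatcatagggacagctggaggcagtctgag
TCAAGGTCA, the core of the estrogen-related receptors, was found in 2 of 28 genes of complexes II to V and in 0 of 32, 26 and 30 of complex I, the TCA list and fatty acid oxidation, against 0.466% of all genes.

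Targets of the integrated stress response, a shared answer to amino acid, mitochondrial and unfolded protein stress, rose in 16 of 26 tested cases (28 listed) and fell in 4. Mthfd2, a mitochondrial folate enzyme, was at 2.06, 2.85, 1.80 and 2.57 CPM in sham hearts and 23.5, 20.3, 31.4 and 37.0 CPM after infarction (log2 fold change 3.59 with SE 0.24, adjusted p = 5.32e-06 in edgeR). Asparagine synthetase (Asns) and the serine enzymes Phgdh and Psat1 rose by 2.49, 3.66 and 1.64 (SE 0.34, 0.38 and 0.33), and the stress factor Nupr1 by 4.09 (SE 0.41). Chac1, which breaks down glutathione, fell (log2 fold change -0.74 with SE 0.19, adjusted p = 0.00863 in edgeR). Gdf15, described above, is on this list too. Of 19 folding genes of the endoplasmic reticulum, 5 rose (3 with the replicate number as a block) and 3 fell. Those shares, 26.3% and 15.8%, stood beside 26.1% and 22.8% of all genes. The chaperone Hspa5 fell by 0.55 (SE 0.13, edgeR adjusted p = 0.00503).

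Other stress lists held both rises and falls. Of 38 tested NRF2 and redox genes (39 listed) 15 rose and 13 fell. The producers of reactive oxygen Nox4, of fibroblasts, and Cybb, of phagocytes, rose by 5.72 (SE 0.25) and 3.23 (SE 0.23), while catalase (Cat), which removes it, fell by 0.92 (SE 0.14). Heme oxygenase (Hmox1) was not called (0.88, edgeR adjusted p = 0.152). Of 23 heat shock genes 5 rose and 6 fell (3 without infarction replicate 1 and 10 by DESeq2), shares of 21.7% and 26.1% near those of all genes, with the inducible Hspa1a at 1.20 (SE 0.28), and of 23 tested immediate early genes (24 listed) 13 rose and none fell, with Egr1 at 2.26 (SE 0.34). Circadian clock genes rose in 4 and fell in 3 of 19 tested cases (20 listed), below the share of all genes called. Klf15, a glucocorticoid target that restrains growth of heart muscle and supports its use of lipid, fell from 216, 247, 294 and 264 CPM to 93.2, 89.2, 90.9 and 76.4 CPM (log2 fold change -1.55 with SE 0.13, adjusted p = 1.91e-05 in edgeR).

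Among the ribosomal proteins, the muscle and general forms of L3 moved in opposite directions. Rpl3l, a muscle form of ribosomal protein L3, was at 369, 357, 474 and 392 CPM in sham hearts and 70.6, 109.6, 55.7 and 7.93 CPM after infarction (log2 fold change -2.71 with SE 0.57, adjusted p = 0.00298 in edgeR). Its general form Rpl3 was at 135, 158, 129.6 and 134 CPM and 386, 333, 423 and 563 CPM (log2 fold change 1.62 with SE 0.17, adjusted p = 7.22e-05 in edgeR). Rpl3l was lower and Rpl3 higher in every infarcted heart than in any sham heart, and the ratio Rpl3l to Rpl3 went from 2.74, 2.25, 3.66 and 2.93 to 0.183, 0.329, 0.132 and 0.0141 (exact permutation p = 0.0286). Over 81 tested cytosolic ribosomal protein genes (83 listed) 35 rose and 2 fell at a median of 0.35. That count of rises ran from 4 to 49 over the alternatives, with 21 without sham replicate 1, 23 without sham replicate 4 and 17 with the replicate number as a block. Of 37 proteasome genes 4 rose and 9 fell, shares of 10.8% and 24.3% beside 26.1% and 22.8% of all genes. The falls were 4 without sham replicate 1 or 2, infarction replicate 1, or infarction replicates 1 and 4, and 3 without sham replicate 3 or 4. The rises included the interferon-inducible subunits Psmb9 (2.40, SE 0.20) and Psmb10 (1.38, SE 0.21).

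Markers of vessels diverged. Of 15 endothelial markers 6 fell and 1 rose, shares of 40% and 6.67%, and 3 fell without sham replicate 3 or infarction replicate 3. Pecam1, present on all endothelium, was at 245, 264, 245 and 226 CPM after infarction, overlapping the sham values given above. Aqp1, a water channel of cardiac capillaries, was at 1339, 1473, 1732 and 1666 CPM in sham hearts and 525, 529, 413 and 197 CPM after infarction (log2 fold change -1.90 with SE 0.29, adjusted p = 0.000495 in edgeR), and the VEGF receptor Flt1 fell by 1.04 (SE 0.18). The rise was Vwf, the clotting factor of larger vessels and veins, from 183, 177, 126 and 162 CPM to 414, 331, 243 and 269 CPM (log2 fold change 0.96 with SE 0.19, adjusted p = 0.00226 in edgeR). Among VEGF, angiopoietin, apelin and Notch genes 11 of 31 rose and 7 fell. Those shares, 35.5% and 22.6%, stood beside 26.1% and 22.8% of all genes. The ligand Vegfb fell by 0.93 (SE 0.16) and Vegfd rose by 2.45 (SE 0.26), while edgeR made no call for Vegfa (-0.45, adjusted p = 0.0758), which passed in DESeq2 (adjusted p = 0.0437) and without infarction replicate 2 (adjusted p = 0.00748). Of 8 smooth muscle markers none rose and 2 fell, and of 9 pericyte markers 3 rose and 2 fell (4 by DESeq2, 1 without sham replicate 1, 2 or 3). The share lower was 25% for smooth muscle and 22.2% for pericytes, near that of all genes, and 33.3% of pericyte markers were higher.

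**Figure D5:**
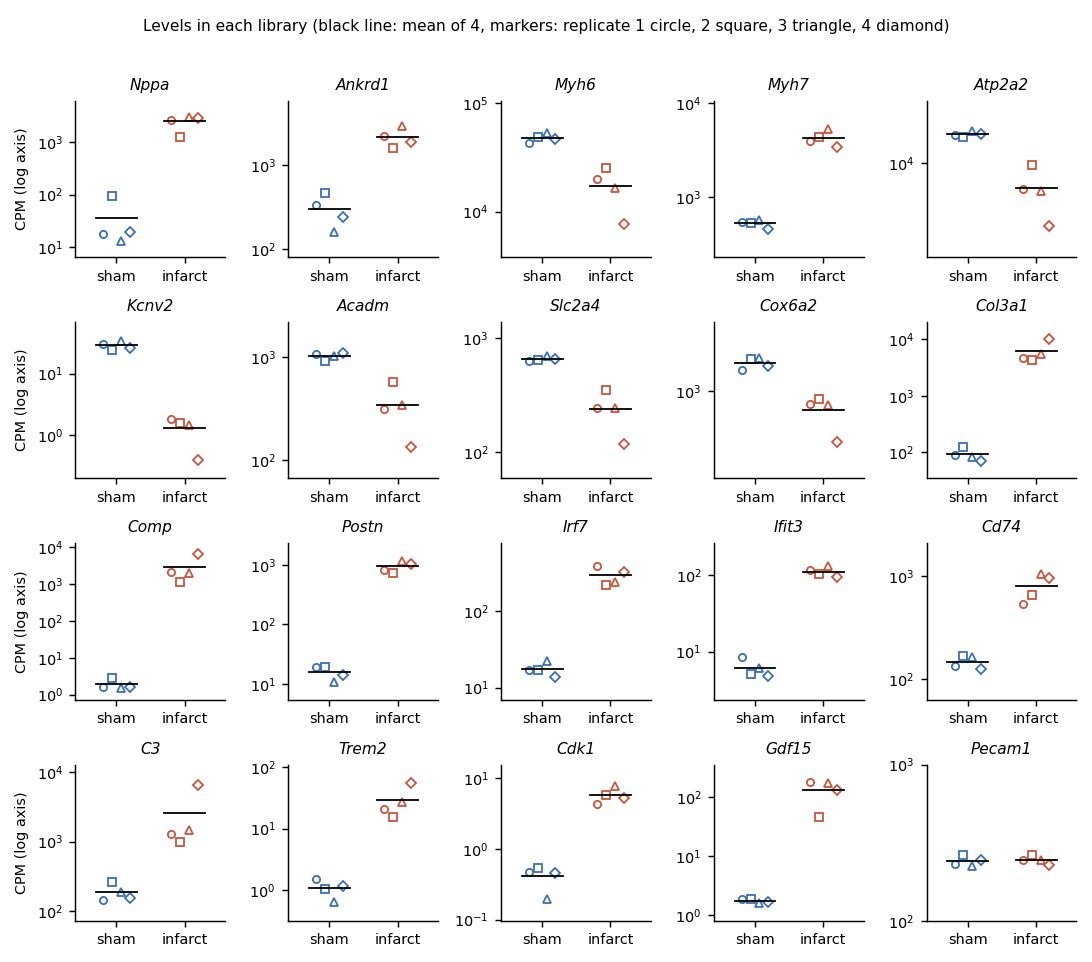
Level of 20 genes (vertical axes, CPM, log scale) in the 4 sham (blue) and 4 infarction (red) libraries, with the mean of each group as a black line and the marker shape giving the replicate number (circle 1, square 2, triangle 3, diamond 4). In 19 of the 20 the groups do not overlap, and Pecam1 overlaps. Infarction replicate 4 is the lowest for Atp2a2, Acadm, Slc2a4 and Cox6a2 and the highest for Col3a1, Comp and C3.

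The infarcted hearts lay in the same order in several muscle and mitochondrial lists. Replicate 2 was nearest to sham and replicate 4 farthest in fatty acid oxidation (-1.41, -0.87, -1.49 and -2.45 in replicates 1 to 4), complex I (-0.97, -0.70, -0.996 and -1.94) and potassium channels (-1.09, -1.004, -1.34 and -1.78). Collagen chains had replicates 2 and 4 at the same ends (3.22, 2.61, 3.20 and 3.36), with replicates 1 and 3 swapped and nearly equal. Cartilage genes kept the order, with a larger spread than collagen chains (3.20, 2.79, 3.23 and 4.31). The interferon list spanned 2.24 to 2.46 and the cell cycle list 1.40 to 1.68. The labels give no infarct size. The replicate numbers are names, so the order says only which libraries lie together.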

How the data were processed

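RNA was measured by sequencing of polyadenylated RNA from left ventricles, 1 library per heart. Per the submitters' processing notes reads were processed with fastp and the genome build is GRCm39 (mm39). Aligner, counter, annotation and strand setting: not given in the sources used here. Deposited by the authors were raw read counts for 56748 genes, whole numbers with no normalization, and 882 rows that repeat a symbol held 0.00113% of them.

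Counts of the 8 libraries entered edgeR 4.0.16 (R 4.3.3): filterByExpr left 14910 genes, TMM factors were computed, and a robust quasi-likelihood test with 6 residual degrees of freedom and Benjamini-Hochberg adjustment over these genes called adjusted p under 0.05. Shares and isoform ratios were tested by two-sided exact permutation over 70 assignments, in scipy. The code was tested on simulated counts. Log2 distances of hearts used CPM with 0.1 added, and principal components the 1000 most variable genes. No 2 libraries of a group were alike within sampling noise.

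Genes named were the key genes of each list, the genes of smallest p in each direction, the 15 largest rises and falls, the 10 largest changes in CPM and the 14 isoform pairs, and a part of them is printed. The libraries compared, the gene lists and the markers were chosen with earlier results of these data known. Listed symbols that the table does not hold in that spelling, mostly subunits of ATP synthase, were not analysed here. Promoters and their coordinates are those of RefSeq on GRCm38.p6, not of the build of the counts, and GC content came from GENCODE M21 transcripts, matched by symbol for 96.6% of the genes tested. Alternatives were other scalings, filters and tests, DESeq2 1.42.0, the replicate block, and leaving out each library. Same-numbered sham and infarction libraries deviated from their group means with correlations of -0.337, -0.514, -0.237 and -0.352, so the numbers were not read as pairs.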

Additional observations from a re-analysis of the deposited data

Results flagged for a closer look

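Among the results given here, 33 stood out because 1 heart of a group lay apart from the other 3: the gap to its nearest neighbour, as a share of the range of the group, was above the 95% critical value of Dixon for 4 values, on the log2 scale for levels. That is 5.41% of the 610 groups of 4 looked at, and chance gives about 1 in 20. No cause was tested for any of them.

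Infarction replicate 4 was the lowest infarcted heart for genes of muscle: Myl3 (1097 against 3595 to 4578 CPM), Pkp2 (105 against 157 to 159 CPM), Fbxo32 (110.1 against 149.9 to 155 CPM), Irx4 (10.004 against 17.9 to 20.1 CPM) and Kcnv2 (0.394 against 1.46 to 1.81 CPM). It was the lowest for the metabolic genes Cox6a2 (377 against 756 to 856 CPM), Ldhb (493 against 1069 to 1178 CPM), Mfn2 (688 against 1133 to 1164 CPM) and Pfkm (471 against 925 to 1055 CPM), and for the receptor Npr3 (3.99 against 11.4 to 13.2 CPM). Its median log2 distance from sham over the intercalated disc list was -0.56 against -0.28 to -0.25 in the others. The same heart was the highest for Kcne4 (37.0 against 13.1 to 14.8 CPM) and Tlr9 (32.2 against 13.2 to 14.996 CPM), and for the medians of the chemokine list (3.23 against 2.08 to 2.25) and the interferon list (2.46 against 2.24 to 2.26).

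Infarction replicate 2 was the lowest infarcted heart for Nppa (1271 against 2709 to 3104 CPM), Hk1 (392 against 554 to 567 CPM) and Mlkl (4.60 against 5.57 to 5.74 CPM) and for the sum of atrial muscle markers (1509 against 3058 to 3465 CPM), and the highest for the glucocorticoid list (-0.067 against -0.32 to -0.28). Nppa is on the atrial list and makes up most of that sum, so the 2 results are not separate. The atrial light chain Myl7 had 0, 0, 5 and 1 counts in infarction replicates 1 to 4.

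Sham replicate 2 was the highest sham heart for Adamts2 (64.8 against 43.9 to 46.7 CPM), Comp (2.91 against 1.48 to 1.64 CPM), Gja1 (176 against 138 to 141 CPM), Pdlim3 (26.8 against 22.2 to 22.9 CPM) and Pfkp (113 against 82.1 to 85.8 CPM), for neutrophil markers (52.4 against 11.9 to 14.9 summed CPM) and for the list of IGF, PDGF and FGF genes (0.11 against -0.030 to -0.021). Sham replicate 3 was the lowest for Cdk1 (0.193 against 0.461 to 0.534 CPM) and Fkbp1b (0.258 against 0.593 to 0.666 CPM) and the highest for Cacna1c (735 against 622 to 636 CPM). Sham replicate 1 was the highest for Ifit1bl1 (3.20 against 2.02 to 2.17 CPM), and sham replicate 4 the highest for Tlr4 (16.0 against 12.6 to 12.9 CPM) and the lowest for Tgfb3 (15.8 against 21.4 to 22.6 CPM).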

How the results depend on the processing

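The count of genes called (7301) stayed between 5915 and 7822 over every alternative to the fit, the filter and the scaling except 1: when edgeR tested against a change of 1.5-fold, 3576 genes were called, 2333 higher and 1243 lower, so that 65.2% of calls were higher against 53.3%. The cause of that shift in balance was not tested. Leaving out 1 library at a time gave 6326 to 8176 calls, 3485 to 4301 higher and 2841 to 3875 lower. Without infarction replicates 1 and 4, an alternative chosen after seeing the data, the difference in the mitochondrially encoded share was -2.21 percentage points and that in the collagen share 2.03, against -3.43 and 2.73 with all 8 hearts, and leaving out 1 library gave -4.40 to -2.74 and 2.13 to 3.09. With the replicate number as a block, for samples that share only a number, edgeR called 5915 genes, 3213 higher and 2702 lower. With no filter the median log2 fold change over 28606 genes was 0.11. No gene called both with all 8 hearts and in an alternative changed direction. Of the 196 genes named in the text that were called, 185 were called in every setting that gave a value other than the 1.5-fold test, and none changed sign. The sign did change for 8 genes that edgeR did not call with all 8 hearts. Leaving out 1 library at a time gave Acta1 -0.53 to 0.30, Cdkn1a -0.17 to 0.070, Gja1 -0.044 to 0.13, Il1rl1 -0.35 to 0.19, Pcna -0.017 to 0.39, Pecam1 -0.015 to 0.069 and Ppargc1a -0.39 to 0.57. Without infarction replicates 1 and 4 Acta1 stood at 0.41 and Gja1 at -0.083, with the GC offset Cdkn1a at 0.013 and Ldha at 0.0032, and with the block Ppargc1a at -0.10. Cthrc1 and Tnfrsf11b each had 5 counts in the 4 sham hearts together, so their fold changes depend on the prior count. Both passed the filter on low counts through the infarcted hearts, so they could only rise.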

Other observations

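Cytokine receptors and imprinted RNAs also differed between the groups. In a list of the TNF and interleukin-6 families, 19 of 25 tested genes rose (34 listed) and 1, the leukemia inhibitory factor receptor Lifr, fell (-1.16, SE 0.18). Tnfrsf11b, the decoy receptor osteoprotegerin, rose by 4.60 on the log2 scale (SE 0.68, and by 6.21 without sham replicate 3). Of 22 tested long non-coding RNAs and imprinted genes (25 listed) 11 rose, among them H19 (2.67, SE 0.68, and 1.93 without infarction replicate 1) and the neighbours Meg3, Rian and Mirg (2.74, 2.15 and 1.99), and 1, Neat1, fell (-1.06, SE 0.26). Over all 959 genes that the authors' table types as lncRNA the balance lay the other way, with 116 called higher and 242 lower at a median of -0.35, against 3697 higher and 3042 lower of 13201 protein-coding genes. Of 17 glucocorticoid receptors and targets 4 rose and 6 fell, shares of 23.5% and 35.3% beside 26.1% and 22.8% of all genes. The falls included the mineralocorticoid receptor Nr3c2 (-1.03, SE 0.15).

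By the transcription factor families of the authors' table, 221 of 950 factors tested were called higher and 157 lower. Those shares, 23.3% and 16.5%, stood beside 26.1% and 22.8% of all genes. Of the 9 interferon regulatory factors 5 were higher and none lower, of 10 with a Rel homology domain 6 and none, of 18 ETS factors 10 and 1, and of 45 bZIP factors 20 and 4. The cold shock domain family lay the other way, with 5 of 6 lower. Its Ybx2, known from germ cells, was at 38.7, 38.0, 40.9 and 42.5 CPM in sham hearts and 9.998, 11.001, 5.58 and 2.17 CPM after infarction (log2 fold change -2.48 with SE 0.38, adjusted p = 0.000523 in edgeR), and Ybx1 fell by 0.66 (SE 0.15). Among calls at or above 3 in mean log2 CPM whose groups do not overlap, the largest fall was that of Klhl33, a kelch-like gene, at 76.6, 54.0, 93.6 and 87.4 and 6.71, 10.4, 4.06 and 1.72 CPM (log2 fold change -3.77 with SE 0.44, adjusted p = 0.000107 in edgeR). The carboxylesterase Ces1d, the ephrin Efnb3 and the kinase Wnk2 had log2 fold changes of -2.99, -2.66 and -2.45 (SE 0.52, 0.68 and 0.36), all called lower, and without infarction replicate 2 the first 2 stood at -3.66 and -3.57. These families and genes were described after their values were seen.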
